A study of Rattus norvegicus with 6 samples.

Results

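The study describes its cells as PC12, a line from a rat adrenal pheochromocytoma. The chromaffin markers of that line were very low in every library, as given below, and the identity of the cells was not tested. The cytosolic ribosomal protein genes were followed in these cells after knockdown of NQO1, a quinone reductase that also binds RNA. They were the protein-coding rows of the count table whose symbol begins with Rpl or Rps and a number, with Rplp and a number, or with Rpsa, leaving out the S6 kinases (Rps6k). The rule gave 107 of the 18746 genes in the table (16612 of them protein-coding), 67 named for the large subunit and 40 for the small subunit. Of these, 84 rows bore the symbol of a core subunit protein and 7 that of a paralog (a gene related to a core one). The other 16 had a further matching name such as a pseudogene number. One of the last, Rps19bp1, encodes a protein that binds S19 and is not a ribosomal protein. Of 77 core symbols, 67 were matched, 41 of 46 for the large and 26 of 31 for the small subunit.

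The study compared 3 libraries of cells transfected against NQO1 (siNQO1) with 3 control libraries (siCtrl), and the labels name no other agent in either group. The methods describe siRNAs with a nontargeting control, whereas the sample labels describe an shRNA and a control plasmid. Harvest at 48 h is stated for RT-qPCR cells. The samples are described as biological replicates, without saying whether each came from its own culture. The p-values cover only how far these libraries differ.

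A cytosolic ribosome is built from a large subunit, which forms peptide bonds, and a small subunit, which reads the mRNA, and each carries 1 copy of nearly every ribosomal protein. The mRNAs of these proteins are short and abundant, and most start with a pyrimidine tract (the 5′ TOP tract) through which their translation follows nutrient and growth signals. Cells hold many processed copies of these genes in the genome, so reads of a gene and of a near-identical copy cannot always be told apart, and values of single rows carry that limit.

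Each library held between 28873824 and 39467230 reads in genes. Nqo1, the target, was at 368.62, 320.51 and 345.29 FPKM in siCtrl and at 80.78, 75.20 and 77.72 FPKM in siNQO1 (FPKM, fragments per kilobase of gene model scaled to the mapped reads of a library, as deposited). Its log2 fold change was -2.13 ± 0.0658 (SE). The defining genes of PC12 cells were near 0: of 11 chromaffin markers, 9 had a row, none was over 1 FPKM in every library, and Th, Ddc, Chga, Chgb and Phox2a stayed under 0.1 FPKM throughout. Their summed level ran from 0.92 to 1.17 FPKM in siCtrl and from 0.91 to 1.09 FPKM in siNQO1. Of 5 Schwann cell markers, 3 were over 1 FPKM in every library, and their summed level, nearly all of it Sox10 and S100b, was 425 to 488 FPKM in siCtrl and 380 to 386 FPKM in siNQO1, with Mbp under 0.1. Of 5 fibroblast markers, 1, Pdgfra, passed 1 FPKM, with sums of 50.6 to 51.4 FPKM in siCtrl and 46.0 to 49.3 FPKM in siNQO1, and Dcn under 0.1. None of the 5 macrophage or 5 endothelial markers passed 1 FPKM in every library. Their sums were 0.90 to 1.49 and 0.98 to 1.26 FPKM in siCtrl, and 0.98 to 1.41 and 1.08 to 1.12 FPKM in siNQO1. The libraries thus lacked the markers that define PC12 cells, while Sox10 and S100b of the Schwann cell markers were high in both groups. The PC12 label is therefore given as the study's description. The identity of the cells, and the part of the marker levels in the results on ribosomal protein genes, was not tested. siCtrl replicate 2 stood nearer to the siNQO1 libraries (Pearson r of log2 CPM across genes 0.9894 to 0.9903) than the other controls did (0.9841 to 0.9893).

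Ribosomal protein mRNA was among the most abundant RNA of these cells, but its total did not differ between groups beyond the spread of the libraries. The 107 genes took 6.02%, 5.70% and 6.03% of the reads in genes of the 3 siCtrl libraries. Their share was 5.95%, 6.11% and 6.17% in the 3 siNQO1 libraries. It averaged 5.92% ± 0.19 (SD) in siCtrl and 6.08% ± 0.113 (SD) in siNQO1, with 3 libraries each. The groups overlapped, and p was 0.3 by the two-sided exact permutation test, which cannot go below 0.1 for 3 against 3 libraries. Reads of the mitochondrial genome, which share the denominator, took 4.25% to 6.40% in siCtrl and 6.01% to 6.53% in siNQO1, and without them the members' share was 6.25% ± 0.142 in siCtrl and 6.48% ± 0.119 in siNQO1 (exact permutation p = 0.2). In bulk RNA a change in the number of cells of a kind and a change in RNA per cell cannot be told apart.

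Of the 107 genes, 88 passed the filter on low counts and 19 did not, none of the latter with more than 9 reads in any library. One of the 19, picked out after its values were seen, was the row of the core gene Rpl8, with at most 2 reads. A row outside the rule described as L8-like, LOC100360117, stood at 315 FPKM in siCtrl and 323.8 FPKM in siNQO1. Among the 88, mean levels ran from 0.757 to 5203 FPKM with a median of 777 FPKM, against a median of 8.16 FPKM over all 12420 genes tested. In all, 37 of the 100 genes of highest mean FPKM were ribosomal protein genes. Although the ribosome holds 1 copy of most of these proteins, their rows differed widely: 34 of the 88 passed 1000 FPKM and 18 stayed at or under 100 FPKM, among them extra rows of a symbol listed on several chromosomes.

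Of the 3 members of highest mean FPKM in each subunit, Rpl41 fell and is given with the falls, and the other 5 (Rplp0, Rpl19, Rps2, Rpsa and Rps14) overlapped between groups. Rps2 (chromosome 10), which sits at the mRNA entry site of the small subunit, led with 5640.57, 4924.39 and 5636.78 FPKM in siCtrl and 4848.87, 5006.69 and 5163.40 FPKM in siNQO1. The groups overlapped, and its log2 fold change was -0.10 ± 0.0726. Rplp0, the base of the stalk that recruits the translation factors, had 3336.70, 2971.95 and 3354.61 FPKM in siCtrl and 3019.26, 3060.14 and 3126.61 FPKM in siNQO1, a log2 fold change of -0.06 ± 0.0669. For both genes siCtrl replicate 2 was the low control, within or below the siNQO1 range. Rpsa, the small subunit protein also known as laminin receptor, stood at 2510 FPKM in siCtrl and 2425 FPKM in siNQO1 (log2 fold change -0.04 ± 0.0644). Rpl19, a protein of the bridge between subunits, stood at 2401 FPKM ± 112 in siCtrl and 2368 FPKM ± 65.1 in siNQO1, and Rps14, known from the 5q deletion syndrome, at 1821 FPKM ± 207 and 1845 FPKM ± 21.6 (SD, n = 3). Without siCtrl replicate 2, Rps2, Rplp0 and Rpsa fell, by 0.16, 0.12 and 0.09 on the log2 scale (edgeR adjusted p = 0.000833, 0.00576 and 0.0347). In that fit 16.1% of all genes tested were called lower and 17.2% higher, against 7.38% and 5.27% with all libraries.

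Between groups, more members were called higher in siNQO1 than lower, all by small steps. By edgeR's quasi-likelihood test at an adjusted p under 0.05, 20 of the 88 genes tested rose (22.7%, against 5.27% of all genes tested), 4 fell (4.55%, against 7.38%) and 64 did not pass. Their log2 fold changes lay between 0.19 and 0.39 for the 20 that rose, with a median of 0.27, and between -0.60 and -0.36 for the 4 that fell. With the study's further threshold, a fold over 2, edgeR called 0 members higher, against 0.242% of all genes, and 0 lower, against 0.193%. No member passed a fold of 2 at an unadjusted p under 0.05 either, nor with DESeq2 or limma voom. At an unadjusted p under 0.05, 31 members were higher and 6 lower. The share of all genes tested at that threshold is not given here, so these counts are not compared. The median log2 fold change of the 88 was 0.10, and 65 of them (73.9%) were above 0, where the median over all genes tested was 0.01 and 51.7% were above 0. The 3 siNQO1 libraries all lay above the 3 siCtrl libraries for 39 members (44.3%, against 16.3% of all genes tested) and below for 7 (7.95%, against 17.9%). The members are abundant, so the like values of abundant genes stand beside theirs. Of the 910 genes of at least 100 FPKM, 10.7% were higher and 9.12% lower, with a median of 0.02, while of the 70 members in that class 20 were higher and 3 lower, with a median of 0.11.

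**Figure D1:**
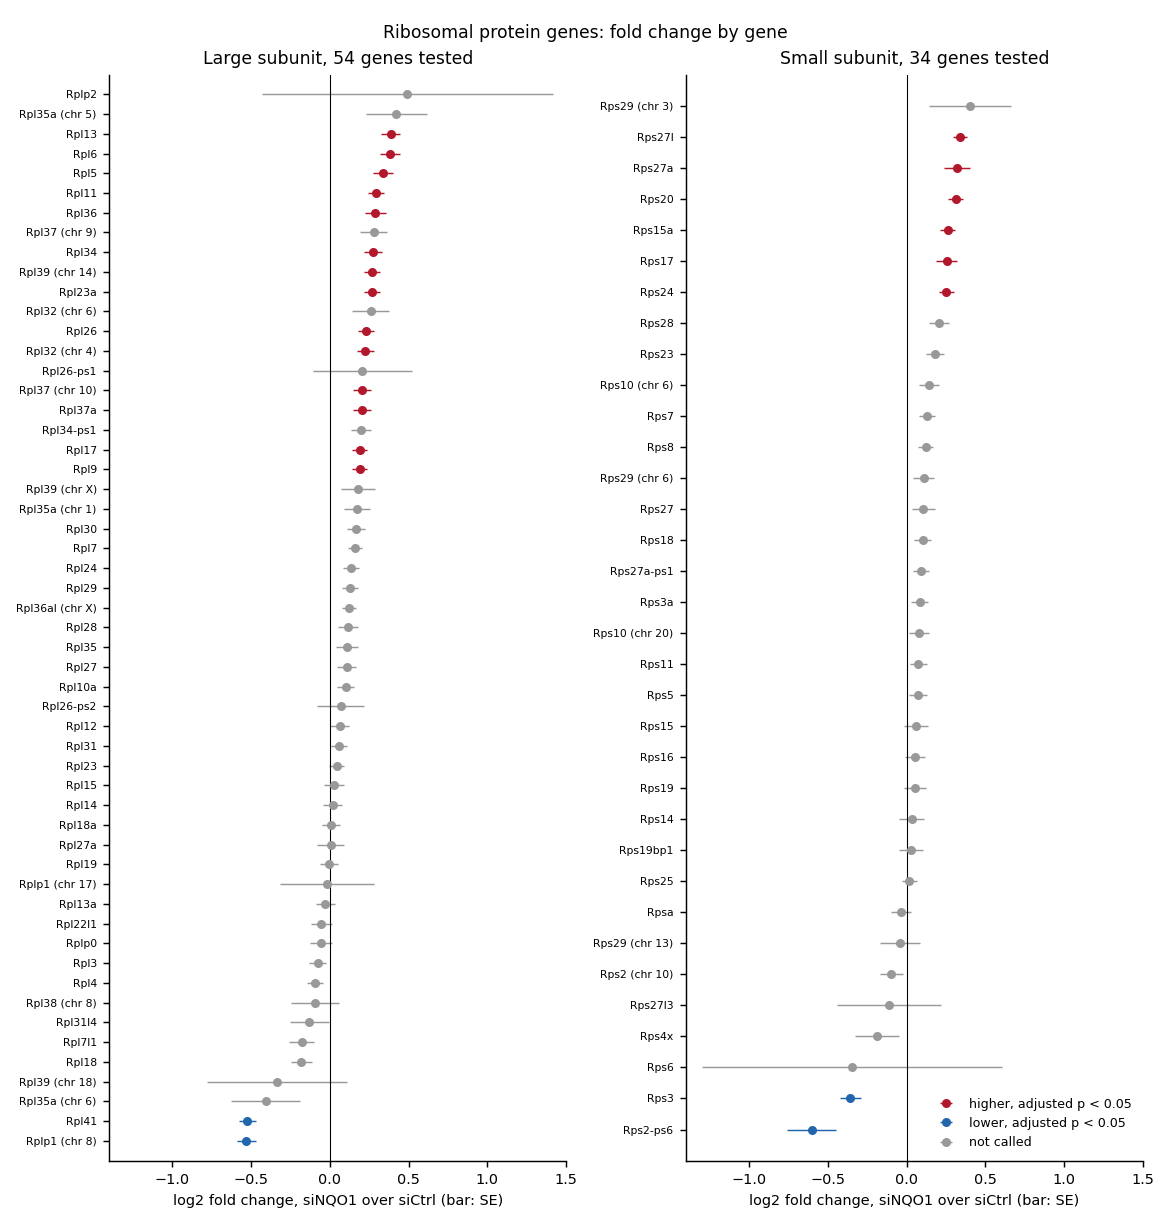
Log2 fold change (siNQO1 over siCtrl, x axis) of the 54 large subunit and 34 small subunit genes tested, ordered by value, with bars for the SE and colour for the call at an adjusted p under 0.05. The 20 genes called higher lie between 0.19 and 0.39, the 4 called lower between -0.60 and -0.36, and Rplp2 and Rps6 have the widest bars.

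The 3 core genes that fell were each among the abundant members. Rpl41 encodes the smallest protein of the ribosome, a short basic peptide at the interface of the subunits. Its level was 3316.74, 3343.45 and 3506.29 FPKM in siCtrl and 2251.61, 2334.14 and 2414.93 FPKM in siNQO1. Every siNQO1 library was below every siCtrl library, and the level fell to 0.695 times that of siCtrl (log2 fold change -0.53 ± 0.0542, edgeR adjusted p = 0.00108). Rplp1, on chromosome 8, encodes the acidic stalk protein P1, which pairs with P2 and is held by P0. It had 2350.47, 2241.15 and 2459.09 FPKM in siCtrl and 1534.72, 1677.86 and 1626.21 FPKM in siNQO1, again with no overlap, and fell to 0.692 times the siCtrl level (-0.53 ± 0.0602, edgeR adjusted p = 0.00155). Of the other stalk genes, Rplp0 was not called, and Rplp2 was nearly without reads in 1 siCtrl library. Rps3, which lines the mRNA entry channel and also acts in DNA repair, had 1106.20, 939.37 and 1037.02 FPKM in siCtrl and 802.86, 778.44 and 801.06 FPKM in siNQO1. It fell to 0.78 times the siCtrl level (-0.36 ± 0.0662, edgeR adjusted p = 0.0113), a call that was lost without siCtrl replicate 3 (adjusted p = 0.05). Rps2-ps6, named as a pseudogene of Rps2, was lower at 13.14 FPKM ± 1.96 against 20.16 FPKM ± 3.63 (adjusted p = 0.0396), and kept its call only when siCtrl replicate 2 was the library left out.

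Rpl13 and Rpl6, both of the large subunit, had the largest rises among the called members. Rpl13 had 1283.29, 1165.74 and 1311.39 FPKM in siCtrl and 1586.64, 1604.79 and 1677.61 FPKM in siNQO1, and rose to 1.31 times the siCtrl level (log2 fold change 0.39 ± 0.0615, edgeR adjusted p = 0.00638). Rpl6 had 1246.95, 1083.19 and 1148.40 FPKM in siCtrl and 1480.28, 1498.10 and 1513.41 FPKM in siNQO1 (0.38 ± 0.0613, adjusted p = 0.0066). In both genes the gap between the groups was wider than the range within either group. Rpl5 and Rpl11, which form with the 5S rRNA the particle that can bind Mdm2 and so stabilise p53, both rose. Rpl5 went from 561.36, 636.14 and 564.87 FPKM in siCtrl to 698.34, 773.27 and 735.84 FPKM in siNQO1 (0.34 ± 0.0637, adjusted p = 0.012), and its call was lost without siCtrl replicate 3, siNQO1 replicate 2 or siNQO1 replicate 3. Rpl11 went from 144.60, 137.63 and 141.42 FPKM to 164.37, 174.25 and 175.29 FPKM (0.29 ± 0.0490, adjusted p = 0.00758). Its FPKM is set by an implied gene model of 4450 bases, and is low beside its read count. Also among the 12 rises of smallest p were Rpl34 (0.27), Rpl39 on chromosome 14 (0.27), Rpl23a (0.27) and Rpl26 (0.23), with standard errors of 0.0516 to 0.0562. The remaining large subunit genes called higher had log2 fold changes of 0.19 to 0.29.

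Of the small subunit, 6 genes rose. Rps27l, a paralog of Rps27 known as a p53 target, had 301.71, 299.02 and 291.97 FPKM in siCtrl and 358.44, 382.36 and 377.62 FPKM in siNQO1, and had the smallest p of all members that rose (0.34 ± 0.0451, edgeR adjusted p = 0.00301). Its core counterpart Rps27 stood at 1014 FPKM in siCtrl and 1081 FPKM in siNQO1 and was not called (log2 fold change 0.11, adjusted p = 0.378). Rps27 is given here after its values were seen. Rps20, a protein of the head of the small subunit, had 927.05, 967.94 and 928.05 FPKM in siCtrl and 1105.79, 1149.12 and 1215.86 FPKM in siNQO1 (0.31 ± 0.0491, adjusted p = 0.00607). Rps15a (1124 to 1335 FPKM, 0.26 ± 0.0483) and Rps24, one of the genes mutated in Diamond-Blackfan anaemia (558.9 to 659.1 FPKM, 0.25 ± 0.0464), rose without overlap between groups. The other paralogs were not called: Rpl22l1 stood at 103.3 FPKM in siCtrl and 98.46 FPKM in siNQO1, Rpl7l1 at 52.58 and 45.93 FPKM, and Rpl36al on chromosome X at 346.2 and 373.3 FPKM.

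**Figure D2:**
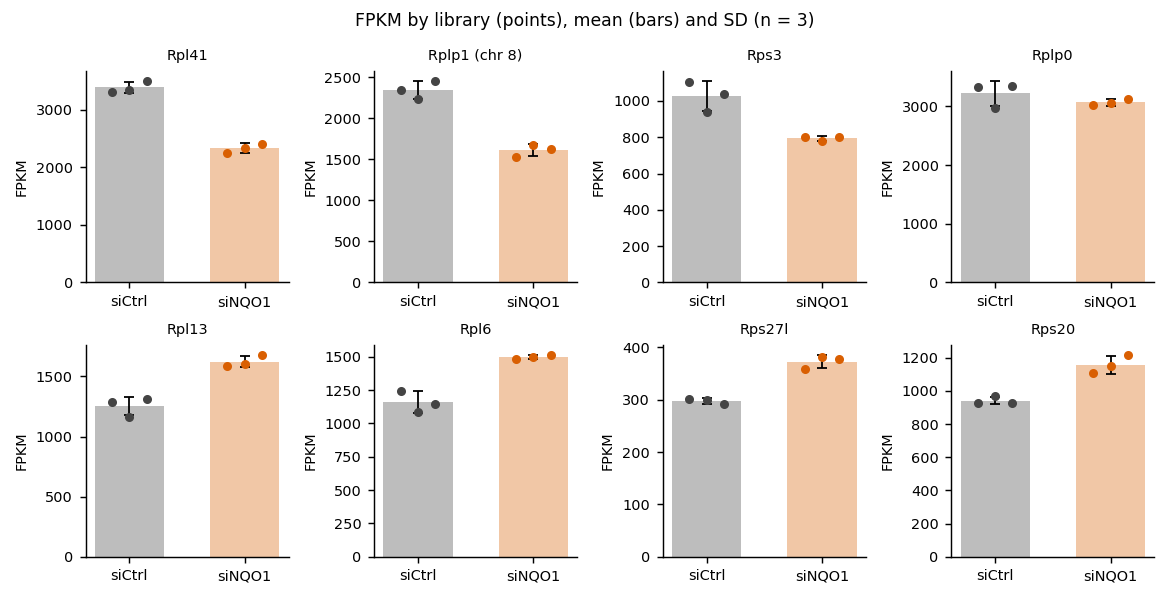
FPKM (y axis, from 0) of 8 members by group, with a point for each library, bars for the mean and lines for the SD (n = 3 libraries). Rpl41, Rplp1 and Rps3 are lower and Rpl13, Rpl6, Rps27l and Rps20 higher in every siNQO1 library, while the groups overlap for Rplp0.

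Many calls were lost when 1 library was left out, which also leaves the test with fewer libraries. Of the 24 calls, 7 held whichever library was left out, namely the rises of Rps27l, Rpl13, Rpl6, Rpl11 and Rps20 and the falls of Rpl41 and Rplp1. The number of members called higher was 11, 30 and 10 without siCtrl replicates 1, 2 and 3, and 13, 5 and 6 without siNQO1 replicates 1, 2 and 3. The number called lower was 3, 11 and 2, and 3, 3 and 3. The share of all genes tested that was called higher moved too, from 1.32% without siNQO1 replicate 2 to 17.2% without siCtrl replicate 2, where 34.1% of the members were higher and 12.5% lower, against 16.1% of all genes lower. The median log2 fold change of the members stayed between 0.08 and 0.13 in these 6 fits, and between 59 and 67 of the 88 were above 0.

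The large and the small subunit genes did not differ in their shift beyond the spread of the libraries. Of 54 large subunit genes tested, 14 were called higher, 2 lower and 38 not, with a median log2 fold change of 0.12 and 39 above 0. Of 34 small subunit genes, 6 were called higher, 2 lower and 26 not, with a median of 0.08 and 26 above 0. Of all genes tested, 5.27% were called higher and 7.38% lower, and 51.7% were above 0. By library, the median log2 CPM (read counts scaled to library size) relative to the siCtrl mean of each gene was 0.09, 0.15 and 0.12 in siNQO1 for the large subunit and 0.09, 0.11 and 0.11 for the small subunit. In siCtrl it was 0.00, -0.04 and 0.04 for the large and 0.02, -0.09 and 0.05 for the small subunit. The medians of every siNQO1 library were above those of every siCtrl library in both subunits (exact permutation p = 0.1, the smallest 3 against 3 can give). The median over all genes tested did not overlap either, at 0.008, -0.023 and 0.006 in siCtrl and 0.014, 0.017 and 0.014 in siNQO1, with group means 0.02 apart against 0.13 for the large and 0.11 for the small subunit. The difference of large minus small was -0.03, 0.04 and -0.01 in siCtrl and 0.00, 0.05 and 0.01 in siNQO1. It overlapped between groups, with means of 0.00 ± 0.037 and 0.02 ± 0.0223 (SD, n = 3, exact permutation p = 0.4). The summed reads gave the same ratio of subunits in both groups to within the spread, a log2 ratio of large over small of 0.55 ± 0.0224 in siCtrl and 0.56 ± 0.0063 in siNQO1 (exact permutation p = 0.7).

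**Figure D3:**
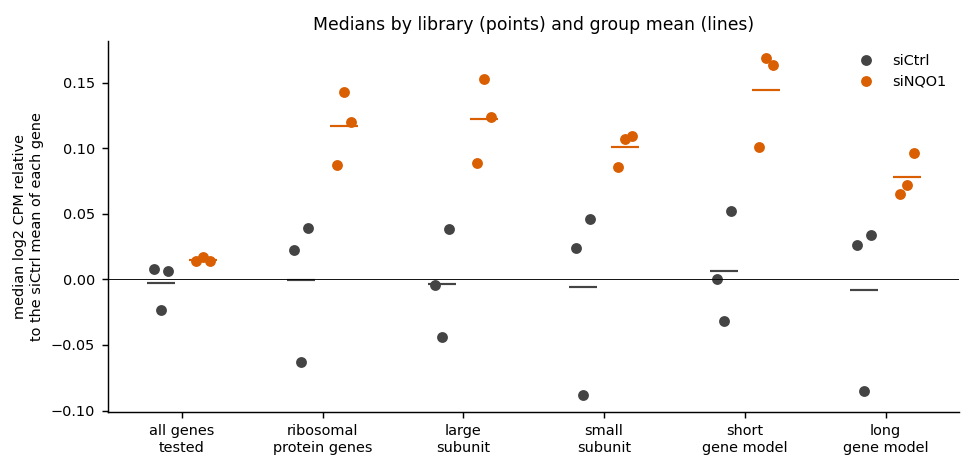
Median over genes of log2 CPM relative to each gene's siCtrl mean (y axis), for all 12420 genes tested, the 88 ribosomal protein genes and their subunit and length classes, with a point for each library and a line for the group mean. Every siNQO1 point of the ribosomal classes is above the siCtrl points of that class, and all genes together differ by 0.02.

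Members with short gene models had the higher median change, by a difference not beyond the spread of the libraries. The length was implied by the ratio of reads to FPKM, with the reads in genes of each library as the total. It stands for the gene model, not the mature mRNA. If the FPKM were scaled to a larger total of mapped reads, all bases given are too high, while the order of genes holds. A length could be had for the 87 members of at least 1 FPKM and ran from 177 to 5960 bases, with a median of 639. The 43 shorter genes had a median log2 fold change of 0.14, with 9 called higher and 2 lower. The 44 longer ones had a median of 0.06, with 11 called higher and 2 lower. Of all genes tested, 5.27% were called higher and 7.38% lower. Short minus long by library was -0.03, 0.05 and 0.02 in siCtrl and 0.04, 0.10 and 0.07 in siNQO1. The means were 0.02 ± 0.0394 and 0.07 ± 0.0303 (SD, n = 3), and the groups overlapped (exact permutation p = 0.2). Over the core genes alone the difference was 0.00 ± 0.0243 in siCtrl and 0.07 ± 0.0313 in siNQO1 without overlap (exact permutation p = 0.1). The 29 shortest members, up to 519 bases, minus the 29 longest, from 808 bases, gave 0.02 ± 0.0784 and 0.11 ± 0.0402 (exact permutation p = 0.2). Short gene models had the higher median outside the ribosome as well. With all genes tested of at least 1 FPKM cut into 4 equal classes by length, the shortest class, up to 1690 bases, held 82 ribosomal protein genes with a median of 0.10 and 2473 other genes with a median of 0.04. The longest class had a median of -0.02. Of all genes in the shortest class, 7.59% were called higher and 4.66% lower, and in the longest 4.74% and 10.7%. Across the 87 genes length and log2 fold change had a Spearman rho of -0.19 and a Pearson r of -0.06 on log2 length. These describe genes of the same 6 libraries, and length also went with the read count (Spearman rho 0.60).

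By read count, most calls lay in the middle range. Of 51 members with an average log2 CPM from 7 to 10, 18 were called higher and 1 lower with a median of 0.13, where 8.93% of all 1511 genes in that range were higher and 13.8% lower. Of 16 members at 10 or more, 2 were higher and 2 lower with a median of -0.02, where 9.09% of 99 genes were higher and 9.09% lower. The 20 members under 7 that had a length had a median of 0.00.

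**Figure D4:**
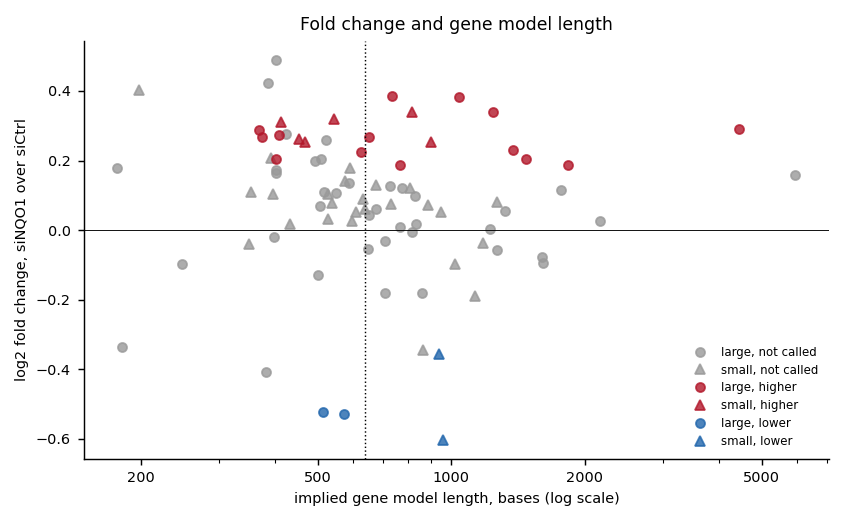
Log2 fold change (y axis) against implied gene model length in bases (x axis, log scale) for 87 ribosomal protein genes, with circles for the large and triangles for the small subunit and colour for the call. The dotted line is the median length of 639 bases, and genes called higher occur on both sides of it.

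The start sites of these genes were read for the 5′ TOP tract, defined as a C within 5 bases of the annotated start that is followed by at least 4 C or T, on the sense strand only. The RefSeq table of build GRCr8 held a window for 57 of the 78 symbols tested. Of their 58 windows 33 (56.9%) held the tract, against 17.0% of 33469 windows of all genes. It was in 21 of 35 windows of the large and 12 of 23 of the small subunit. By call it was in 9 of 17 windows of genes that rose, 1 of 3 of those that fell and 26 of 41 of those not called. A symbol with rows in several of these classes is counted in each, so they add up to more than the 58 windows. The windows below run from 20 bases before the start to 10 bases from it, with the tract in capitals. They show members that fell (Rplp1, Rpl41, Rps3), rose (Rpl13, Rpl34, Rpl9) or were not called (Rpl19, Rplp0). They are a selection in which every window of a gene that rose or was not called has the tract. Windows of Rpl6, Rpl5, Rpl11 and Rps27l, which rose, and of Rps2 and Rpsa, not called, lack it. Rpl9 is named after its values were seen.
Rplp1: tgcgcgcaggcgcatgtgatCCTTTCCTCa
Rpl41: gaaggggcggctcggaagtgacgacaccaa
Rps3: ttcctttcctttcagcggcgcgcggcagca
Rpl13: gggtgctttgcggtgcccgatCCTTTCCgc
Rpl34: gcccgccccttccttttcctCTTCCgggga
Rpl9: gtgatgacgaaggacgttctCTCTTTgccc
Rpl19: gagcccgcgaccagcaagctCTTTCCTTTC
Rplp0: ctggtgaccgcaccgcacttCTCTCgccag
They lie at chr8:71290863-71290892 (minus strand) for Rplp1, chr7:1563488-1563517 (minus) for Rpl41, chr1:163195767-163195796 (minus) for Rps3 and chr19:68062494-68062523 (plus) for Rpl13. The others are at chr2:221962274-221962303 (minus) for Rpl34, chr14:43247570-43247599 (plus) for Rpl9, chr10:83519044-83519073 (plus) for Rpl19 and chr12:46718381-46718410 (minus) for Rplp0. In Rps3 a pyrimidine run ends upstream of the annotated start. A match describes the annotated start, which may differ from the start used in these cells.

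A pair of members had 1 library far from the rest, and both were singled out after their values were seen. Rps6, the small subunit protein phosphorylated by S6 kinases, had 6434, 8621 and 7444 reads in siCtrl, 9253 and 8199 in siNQO1 replicates 1 and 2, and 127 in siNQO1 replicate 3. Its log2 fold change was -0.35 ± 0.953 with all libraries and 0.22 ± 0.0844 without siNQO1 replicate 3 (edgeR adjusted p = 0.183). LOC100911372, a row described as S6-like, had 2982, 4786 and 3932 reads in siCtrl and 5157, 5462 and 7154 in siNQO1, with no such gap. Rplp2 had 10 reads in siCtrl replicate 1, then 1810 and 3030, and 1829, 2675 and 2292 in siNQO1. Its log2 fold change, the highest of all members at 0.49 ± 0.924, turned to -0.10 ± 0.234 without siCtrl replicate 1. LOC498555, a row described as similar to P2, had 7472, 8209 and 9572 reads in siCtrl and 8254, 8544 and 10275 in siNQO1. With all rows of a protein summed, S6 had 9416, 13407 and 11376 reads in siCtrl and 14410, 13661 and 7281 in siNQO1, so the gap of siNQO1 replicate 3 was not filled by the other row.

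**Figure D5:**
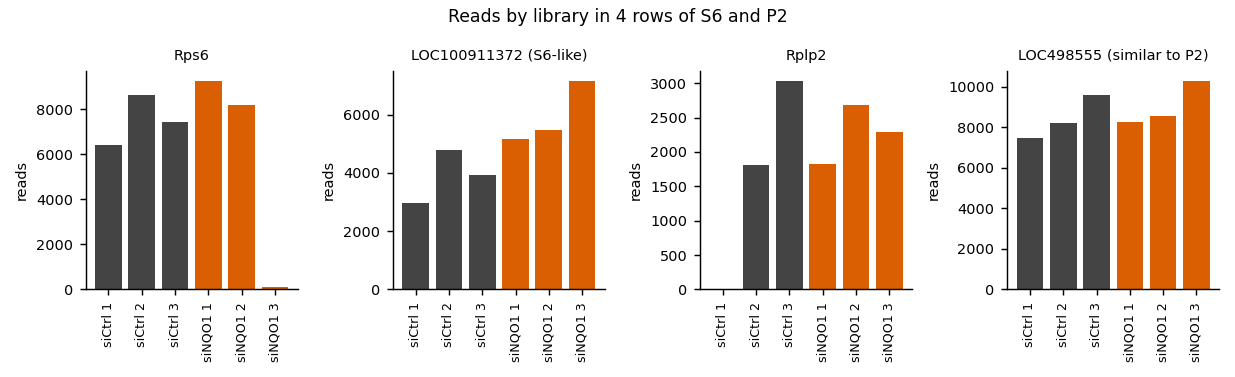
Reads per library (y axis, from 0) in Rps6, the S6-like row LOC100911372, Rplp2 and the P2-like row LOC498555, with siCtrl libraries in grey and siNQO1 libraries in orange. Rps6 is at 127 reads in siNQO1 replicate 3 and Rplp2 at 10 reads in siCtrl replicate 1, while the paired rows show no such gap.

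Counted by protein rather than by row, the result was alike. Reads of all rows whose description names the same cytosolic ribosomal protein were summed, a choice made after the data were seen. Of 79 proteins tested, 15 of 47 large subunit proteins were called higher and 2 lower (median 0.10), and 7 of 32 small subunit proteins higher and 1 lower (median 0.11). In that fit 5.31% of all 12351 genes tested were higher and 7.37% lower. L41 (-0.53), P1 (-0.53) and S3 (-0.36) were the 3 lower ones. L22 rose with its rows summed (0.31), as did S26 (0.26), S9 (0.45) and S12 (0.22). Their core symbols were not matched by the rule, and they are named after their values were seen. The difference between subunits in these sums was -0.003 on the log2 scale (exact permutation p = 0.8).

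Other gene lists around the ribosome were read in the same fit. Of 24 other genes listed for a 5′ TOP tract, which encode elongation factors, poly(A)-binding proteins and others, 6 of 20 RefSeq windows (30.0%) held the tract as defined here. Of these genes 23 were tested, and edgeR called 6 higher and 0 lower. It called 5.27% of all genes tested higher and 7.38% lower, and 10.7% and 9.12% of those of at least 100 FPKM. DESeq2 called 8 of the list higher and 0 lower, against 6.19% and 8.34% of all genes tested. At an unadjusted p under 0.05, 12 were higher and 0 lower, with no share of all genes given at that threshold. The median log2 fold change of the 23 genes was 0.14. The 6 called higher were Vim, an intermediate filament gene (2544 to 3186 FPKM, 0.34 ± 0.0619), Npm1, a nucleolar chaperone (218.8 to 304.6 FPKM, 0.49 ± 0.129), Eif4b, a cofactor of the helicase eIF4A (64.16 to 79.31 FPKM, 0.32 ± 0.0486), Tpt1, the translationally controlled tumour protein (1477 to 1759 FPKM, 0.27 ± 0.0649), Pabpc4, a poly(A)-binding protein (99.60 to 114.8 FPKM, 0.22 ± 0.0453), and Naca, of the nascent chain complex (79.69 to 88.51 FPKM, 0.16 ± 0.0443), the last named after its values were seen. Of 23 tested regulators of ribosomal protein mRNA, such as the growth signalling and La-related genes, edgeR called 0, with a median of 0.05. DESeq2 and limma voom called none either. At an unadjusted p under 0.05, 3 were higher and 1 lower, again with no share of all genes given. Of 10 tested genes listed as chaperones of ribosomal proteins, Bccip (0.22) and Nacad (0.49) rose and Heatr3 (-0.33) and Aamp (-0.24) fell. Nacad is described only as NAC alpha domain containing. Of 12 tested genes of ribophagy and ribosome quality control, Abce1, which splits ribosomes after termination, rose (23.87 to 31.83 FPKM, 0.43 ± 0.108) and Rnf10, a ligase that ubiquitinates S2 and S3, fell (110.8 to 88.77 FPKM, -0.31 ± 0.0548). Gnb2l1, which encodes the small subunit protein Rack1, was tested outside the rule and not called (0.05).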

How the data were processed

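The authors made stranded libraries of polyadenylated RNA from 3 siNQO1 and 3 siCtrl samples, selected the ligated products by size, and kept reads with a unique position on RGSC6. The submitters' notes list bcl2fastq, TopHat2 and edgeR. Per gene, the authors deposited read counts, which are whole and not scaled, and FPKM values of their own. No source used here states the counting tool or its strand setting, and unique mapping can drop reads that near-identical copies share.

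The read counts were fitted with edgeR 4.0.16 under R 4.3.3: filterByExpr with the groups, TMM scaling (factors 0.987 to 1.02), glmQLFit and glmQLFTest without a block, and Benjamini-Hochberg adjustment over 12420 genes. The common biological coefficient of variation was 0.109. Log2 CPM used a prior count of 2. Medians and shares per library were compared by exact two-sided permutation over libraries. The fit was tested on simulated data first. It called 12 of 50 genes given a fold of 1.3, 30 of 48 at 1.5, 39 of 50 at 2 and 47 of 49 at 4. A member not called may therefore have changed by a small fold.

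The members and the gene lists were chosen with earlier results of these data known. Named members were up to 12 called in each direction by smallest p, the 3 most abundant of each subunit, the 3 largest and 3 smallest fold changes and the paralogs tested, and from other lists up to 5 called genes a direction. Rows that share a symbol are given with the chromosome of the files. The alternatives took other scalings, filters and tests (DESeq2 1.42.0, limma 3.58.1 on counts and on log2 FPKM with pseudocounts of 1 and 0.1), blocked on the replicate number, or left out 1 library. Summing rows by protein, and the share and subunit contrast over other member sets, were added after the data were seen. The values of 1 gene tested outside the symbol rule are not reported here.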

Additional observations from a re-analysis of the deposited data

How the results depend on the processing

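The number of members called higher (20) ran from 14 to 24 over the scalings, filters, tests and member sets tried. The number called lower (4) was 3 or 4. Of all genes tested in these settings, 4.14% to 6.19% were called higher and 4.82% to 10.5% lower. The fewest rises, 14 and 15, came from limma on log2(FPKM + 1) and log2(FPKM + 0.1), and the most, 24, from DESeq2. Their median log2 fold change (0.10) stayed between 0.09 and 0.12, also with TMM factors made without these genes. Leaving out 1 library gave 5 to 30 rises, 2 to 11 falls and a median of 0.08 to 0.13, large minus small of 0.00586 to 0.0505 (main 0.0183), short minus long of 0.0362 to 0.0884 (main 0.0512) and a difference in share of 0.053 to 0.226 percentage points (main 0.163). The lowest count of rises was without siNQO1 replicate 2, and the highest values of the counts and of both contrasts were without siCtrl replicate 2. Of all genes tested with 1 library left out, 1.32% to 17.2% were called higher and 2.78% to 16.1% lower. Large minus small turned to -0.00286 with rows of the same protein summed. Among named genes not called, Rpl19 turned to 0.006 under upper-quartile scaling. With 1 library left out, the log2 fold change ran from -0.049 (without siCtrl replicate 2) to 0.012 (without siCtrl replicate 3) for Rpl19, from -0.092 to 0.003 for Rpsa with the same libraries left out, from -0.06 (without siCtrl replicate 2) to 0.082 (without siCtrl replicate 1) for Rps14, and from -0.099 (without siCtrl replicate 1) to 1.327 (without siCtrl replicate 3) for Rplp2. The cause was not tested.

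With the replicate number as a block, 16 members were higher and 4 lower with a median of 0.11. Same-numbered libraries did not deviate together in every pair (correlations -0.04, 0.16 and 0.06), so they were not treated as pairs. A split by length of the RefSeq protein was not run, since protein lengths were not used here.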

Other observations

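Beside the rows matched by symbol, 145 rows had a description that names a cytosolic ribosomal protein, and 65 of them were tested. Of these, 10 were called higher, 1 lower and 54 not by edgeR's quasi-likelihood test, against 5.27% of all genes tested higher and 7.38% lower. Their median log2 fold change was 0.09. Several bore the proteins whose own symbol rows rose: rows described as L13 (LOC100360491, 387 FPKM in siCtrl and 499.3 FPKM in siNQO1, log2 fold change 0.38), L6 (AABR07065438.1, 142.8 and 197.6 FPKM, 0.48), S24 (LOC100363469, 100 and 142.1 FPKM, 0.52) and S20 (LOC100362149, 539.1 and 632.9 FPKM, 0.24) were higher too. Other rows of proteins whose symbol rows rose were not called. Among them were rows described as S17 (LOC100362366, 712.7 FPKM in siCtrl and 822.8 FPKM in siNQO1, 0.22) and L36 (LOC100360439, 10.44 and 9.663 FPKM, -0.10). The S6-like row rose by 0.52 (adjusted p = 0.0114), while Rps6 without siNQO1 replicate 3 was at 0.22. Reads of a gene and its copies may be shared, so these rows are not independent of the members. The lower one, LOC297756, stood at 0.7167 and 0.24 FPKM.

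Together, all rows matched by the rule or described as ribosomal proteins took 7.07% ± 0.214 of gene reads in siCtrl and 7.34% ± 0.141 in siNQO1 (SD, n = 3, exact permutation p = 0.3).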
